A study of Mus musculus with 9 samples.

Results

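The genes described here are 34 named genes of the brain's blood vessels, picked by gene symbol from what is known of vessel cells, at a time when earlier results of these mice were known. They comprise 14 endothelial identity genes, 4 junction genes, 8 barrier transport genes, 5 pericyte genes and 3 smooth muscle genes, out of 24532 genes listed for every mouse. All 34 were found and all passed the filter on low expression. RNA of the medial prefrontal cortex (mPFC) was sequenced from 9 male C57BL/6J mice, with one library per mouse and 3 mice per group. The study asked how chronic stress changes the transcriptome of this region and how loss of Fkbp5, a co-chaperone that lowers the sensitivity of the glucocorticoid receptor, alters that response. The CT group were unstressed homozygous wild-type mice, the WT_ST group were wild-type mice held in restraint for 6 h per day over 21 days, and the KO_ST group were Fkbp5-/- mice given the same restraint. All mice came from heterozygous matings of a commercial knockout strain backcrossed over 10 generations, and CT mice went without food and water during the restraint hours. The labels give an age of 11 weeks and the methods of the study 8 weeks. There was no unstressed knockout group, so the effect of genotype could be compared only within stressed mice, and the knockout was not limited to a cell type.

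The endothelial cells of brain capillaries form the blood-brain barrier: tight junctions seal the gaps between them, and transporters in their membranes carry nutrients in and drugs out. Pericytes lie on the capillary wall and share its basement membrane, whereas smooth muscle cells ring the arterioles and set their diameter. The VEGF receptors, the angiopoietin receptor and the TGF-beta co-receptor endoglin keep endothelial cells alive and quiescent in the adult.

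Promoter sequences are shown for 4 members: Cldn5, called lower in both stressed groups than in control mice, Vtn, called lower in stressed wild-type mice, and Eng and Tie1, which carry the letters of an endothelial transcription factor motif. Each line gives the 250 bases before the RefSeq gene start of build GRCm38.p6, read in the direction of transcription, for Cldn5 at chr16:18776597-18776846 on the plus strand, Vtn at chr11:78498870-78499119 on the plus strand, Eng at chr2:32646345-32646594 on the plus strand and Tie1 at chr4:118489850-118490099 on the minus strand. Capitals in Vtn mark TGTTCT, the core letters of the glucocorticoid response element, and capitals in Eng and Tie1 mark AGGAAG or its reverse complement CTTCCT, letters bound by ETS family factors.
Cldn5: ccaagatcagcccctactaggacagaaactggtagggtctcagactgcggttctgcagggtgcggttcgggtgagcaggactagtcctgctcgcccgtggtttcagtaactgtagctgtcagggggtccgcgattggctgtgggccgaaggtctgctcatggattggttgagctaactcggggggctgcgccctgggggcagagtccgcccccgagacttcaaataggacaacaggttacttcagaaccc
Vtn: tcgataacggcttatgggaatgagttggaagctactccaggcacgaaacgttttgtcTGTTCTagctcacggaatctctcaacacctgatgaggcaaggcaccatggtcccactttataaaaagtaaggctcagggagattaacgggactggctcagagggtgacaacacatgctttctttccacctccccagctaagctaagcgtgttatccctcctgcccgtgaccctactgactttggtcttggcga
Eng: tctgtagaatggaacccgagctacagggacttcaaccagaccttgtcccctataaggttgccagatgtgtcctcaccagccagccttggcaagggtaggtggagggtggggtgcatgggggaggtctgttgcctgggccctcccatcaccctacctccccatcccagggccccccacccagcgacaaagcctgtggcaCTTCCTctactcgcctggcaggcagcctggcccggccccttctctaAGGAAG
Tie1: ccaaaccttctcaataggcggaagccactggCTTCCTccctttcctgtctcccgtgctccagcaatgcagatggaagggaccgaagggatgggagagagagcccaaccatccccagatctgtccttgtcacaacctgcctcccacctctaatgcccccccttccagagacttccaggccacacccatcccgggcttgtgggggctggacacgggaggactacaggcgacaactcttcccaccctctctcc

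The capitals begin 193 bases before the start in Vtn, 52 and 6 bases before it in Eng, and 219 bases before it in Tie1. Neither motif was present in the Cldn5 window on either strand. Of the 34 members, 25 had entries in the RefSeq promoter table, with 32 windows in all; Slc7a5, Ly6a, Esam, Pdgfrb, Pecam1, Cdh5, Tagln, Vwf and Myh11 had none. AGGAAG on either strand stood in 15 of these 32 windows (46.9%), those of Abcb1a, Abcg2, Egfl7, Emcn, Eng, Flt1, Itm2a, Ly6c1, Slco1a4, Slco1c1, Tfrc and Tie1, and in 29.5% of all 32851 windows of the same length. TGTTCT on either strand stood in 4 of the 32 (12.5%), those of Acta2, Egfl7, Tek and Vtn, against 16.1% of all windows. Matches on both strands were counted, overlaps between different motifs were not separated, and a match describes the sequence only.

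Depth ranged from 43778471 to 61150128 reads per mouse, and a member had between 101 and 10208 reads in a mouse. The knocked-out gene gave 7.61, 6.46 and 7.28 FPKM (read pairs scaled for transcript length and for sequencing depth) in CT, 9.83, 9.47 and 10.3 in WT_ST, and 3.59, 4.69 and 4.45 in KO_ST, so Fkbp5 was lowest in the mice labelled knockout, with reads still present (KO_ST against WT_ST log2 fold change -1.04, limma adjusted p = 0.00908). The members varied more between mice of a group than all genes did at the median: the median standard deviation within groups was 0.144 on the log2(FPKM+1) scale against 0.0911 over the 14370 tested genes, from 0.0783 for Ly6c1 to 0.334 for Acta2. Over all tested genes, CT replicate 2 was most often the lowest (17.1%) and most often the highest (17.7%) of the 9 mice. It was the lowest for 4 and the highest for 7 of the 34 members. Among the members, the mouse KO_ST replicate 1 stood apart. It was the lowest of the 9 mice for 16 of 34 members, against 11.8% of all tested genes, and its median deviation from the 9-mouse mean over the members was -0.22 (log2) against 0.0019 over all tested genes. KO_ST replicate 3 was the highest for 12 of 34 members, against 9.95% of all tested genes. Member genes with a call or an unadjusted p under 0.05 in KO_ST against either group are therefore given with and without KO_ST replicate 1. In bulk tissue, fewer vessel cells and less RNA per vessel cell cannot be told apart.

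**Figure D1:**
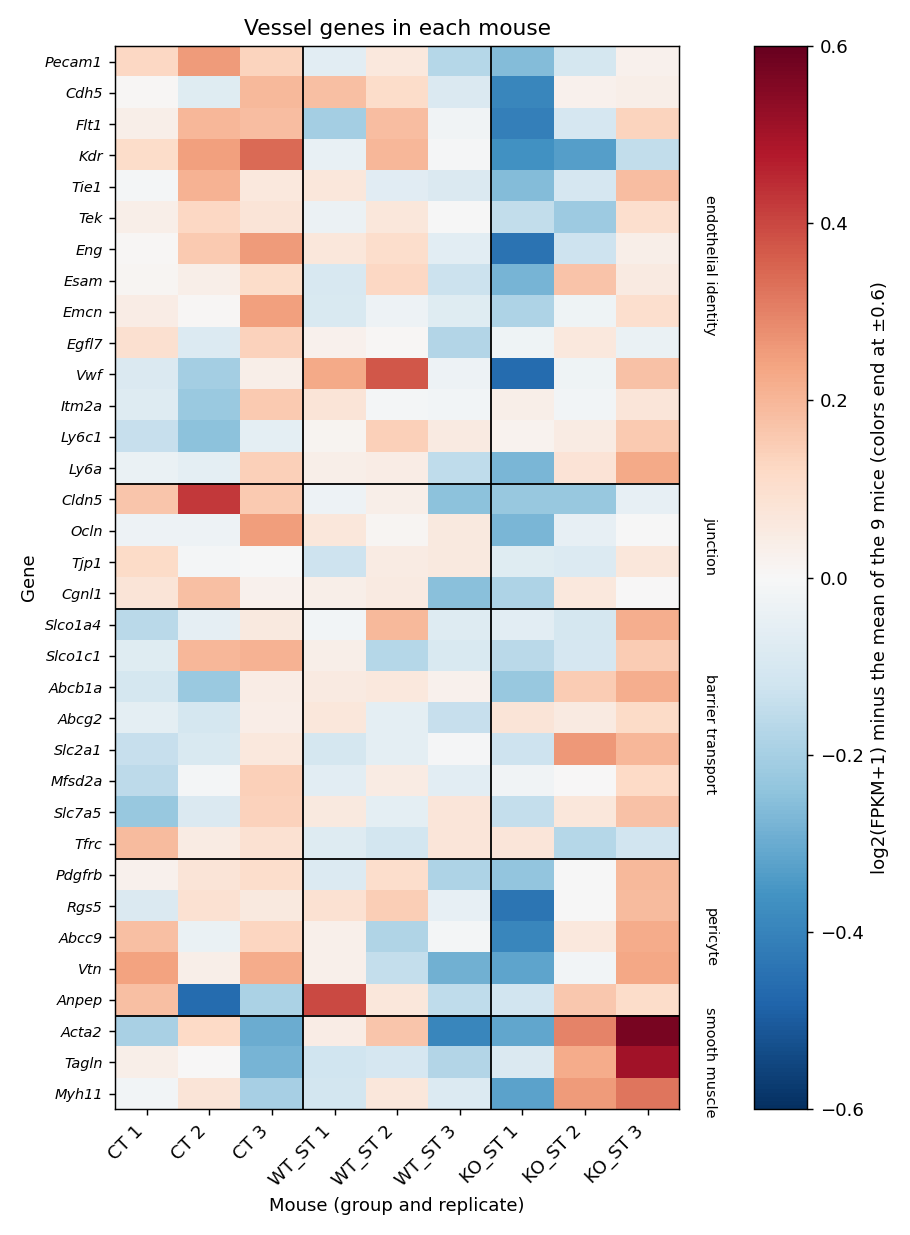
Each cell shows the log2(FPKM+1) of a gene, without quantile normalization (rows, grouped by role), in a mouse (columns) minus the mean of that gene over the 9 mice, with red above and blue below the mean and colors ending at ±0.6. KO_ST 1 is blue for most endothelial identity and pericyte genes, KO_ST 2 and KO_ST 3 are red for the 3 smooth muscle genes, and Cldn5 is red in all CT mice.

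Levels per length covered a wide range. Slc2a1, the glucose transporter GLUT1, had the highest level of the members with a mean of 34.5 FPKM over the 9 mice, followed by Tfrc, the transferrin receptor that carries iron across the barrier, at 29.1 and Vtn, the matrix protein vitronectin made by brain pericytes, at 25.1. The amino acid transporter gene Slc7a5 (24.9), the endothelial surface antigen gene Ly6c1 (24.6) and Itm2a (23.5) came next. Neighbors in this order lay within the spread of the mice, since Slc7a5 ran from 21.1 to 28.2 and Ly6c1 from 20.5 to 27.5. Anpep, the pericyte aminopeptidase N, was the lowest at 1.15 FPKM, just under Myh11, the smooth muscle myosin heavy chain, at 1.26 and Abcc9, a subunit of the potassium channel of pericytes, at 1.5. Endothelial identity genes lay between 2.01 (Vwf) and 24.6 (Ly6c1), and smooth muscle genes between 1.26 (Myh11) and 3.75 (Acta2). Vessel cells are a small part of cortical tissue, and several members, among them Slc2a1, Tfrc, Slc7a5, Slco1c1 and Tjp1, are known to be transcribed in other brain cells as well.

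Some members have near copies in the genome whose reads counting could share. Ly6c2, a near copy of Ly6c1, was listed between 0 and 1.68 FPKM in the 9 mice, so some reads of either gene may belong to the other. Abcb1b, the other P-glycoprotein gene beside Abcb1a, ran from 0.964 to 1.28 FPKM. Relatives of Slco1a4 were at or near 0: Slco1a6 and Slco1a1 were listed at 0 in all mice and Slco1a5 reached 0.0398 FPKM.

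The comparison of WT_ST with CT asked which vessel genes differed after chronic restraint in wild-type mice. Calls were made with limma on quantile-normalized log2(FPKM+1) and required a fold above 1.2 together with p under 0.05 before adjustment. By this rule 3 of 34 members were called (8.82%), against 2.47% of all tested genes: Cldn5 and Vtn fell and Vwf rose. None reached a Benjamini-Hochberg adjusted p under 0.05 over all tested genes by limma, edgeR or DESeq2 (0 of 34 each, against 0.0348%, 0.0418% and 0.501% of all tested genes). By each of the 3 tools 5 members had an unadjusted p under 0.05 (14.7%), against 7.86%, 7.47% and 7.16% of all tested genes. The median log2 fold change was -0.03 over the members and 0.0034 over all tested genes.

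Cldn5 encodes claudin-5, the main claudin of the endothelial tight junction, and lies at chr16:18776847-18778262 of mm10. Its levels were 17.9, 21.6 and 17.8 FPKM in the CT mice, 15.5, 16.3 and 13.2 in WT_ST, and 13.4, 13.4 and 15.3 in KO_ST. Every stressed mouse of either genotype lay below every CT mouse. In WT_ST the log2 fold change against CT was -0.32 (SE 0.102, unadjusted p = 0.0156, limma adjusted p = 0.634, 0.799-fold). That call was lost without CT replicate 2 (-0.23) and without WT_ST replicate 3 (-0.24), in both cases because the fold fell under 1.2.

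The other junction genes did not pass the test. Ocln, encoding occludin, had a log2 fold change of 0.02, Tjp1, encoding the scaffold ZO-1, of -0.03 and Cgnl1, encoding paracingulin, of -0.12 in WT_ST against CT. Junction genes were thus represented among the calls by Cldn5 alone. Claudins other than Cldn5 were not members.

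Vtn lies at chr11:78499120-78502325. It measured 29.6, 25.5 and 29.2 FPKM in CT, 25.4, 22.4 and 20.2 in WT_ST, and 19.8, 24.6 and 29.4 in KO_ST. All WT_ST mice were below all CT mice, although WT_ST replicate 1 at 25.4 nearly met CT replicate 2 at 25.5, and the KO_ST mice spanned both groups. The log2 fold change of WT_ST against CT was -0.30 (SE 0.0912, unadjusted p = 0.0126, limma adjusted p = 0.634, 0.811-fold), and the call was lost without WT_ST replicate 3 (-0.22).

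The remaining pericyte genes were not called in this comparison. Pdgfrb, the PDGF receptor that recruits pericytes to vessels, gave 5.59, 5.83 and 5.97 FPKM in CT, 5.12, 5.97 and 4.70 in WT_ST, and 4.51, 5.48 and 6.42 in KO_ST. Rgs5, a regulator of G protein signaling abundant in pericytes, gave 21.1, 24.0 and 23.4 in CT, 24.0, 25 and 21.7 in WT_ST, and 16.3, 22.4 and 25.8 in KO_ST. Both genes overlapped between all groups. Anpep had a log2 fold change of 0.29, a standard error of 0.191 and a limma unadjusted p = 0.174, and its CT values alone ran from 0.541 to 1.40 FPKM. It was called higher without CT replicate 1 (0.46, limma unadjusted p = 0.0396) and with the replicate block (0.29, limma unadjusted p = 0.0321). In KO_ST against CT, Anpep had 0.23 and was called without CT replicate 1 as well (0.40, limma unadjusted p = 0.0117). Anpep was highest in WT_ST replicate 1 (1.79 FPKM) and CT replicate 1 (1.40 FPKM). In these mice 20 genes of perivascular fibroblasts and meninges had their highest mean log2 deviation from the mean of all mice (0.3 in each). It was -0.24 and -0.27 in the other CT mice. The 5 pericyte genes, Anpep among them, stood at 0.1 in WT_ST replicate 1 and 0.097 in CT replicate 1. The part of fibroblasts in the Anpep values was not tested.

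Vwf encodes von Willebrand factor, the clotting glycoprotein stored by endothelial cells, and lies at chr6:125552948-125686679. Its levels were 1.80, 1.58 and 2.05 FPKM in CT, 2.48, 2.85 and 1.91 in WT_ST, and 1.16, 1.92 and 2.36 in KO_ST. The groups overlapped, since WT_ST replicate 3 lay below CT replicate 3. Vwf had a log2 fold change of 0.31 (SE 0.115, unadjusted p = 0.0313, limma adjusted p = 0.635, 1.24-fold), but 10 of 17 alternatives lost the call. This was the largest increase of the members on the log2(FPKM+1) scale, though not with a pseudocount of 0.1, where Vwf had 0.43 and Anpep 0.53. The call was lost, among others, in the fits without CT replicate 1 (0.30, unadjusted p = 0.0711), CT replicate 2 (0.26, unadjusted p = 0.0939), WT_ST replicate 1 (0.27, unadjusted p = 0.0874) and WT_ST replicate 2 (0.23, unadjusted p = 0.106), all by limma.

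Among the other 13 endothelial identity genes none was called, and 2 had an unadjusted p under 0.05 with a smaller fold. Pecam1, the adhesion molecule CD31, measured 5.67, 6.31 and 5.71 FPKM in CT, 4.86, 5.40 and 4.44 in WT_ST, and 4.11, 4.70 and 5.24 in KO_ST. Both stressed groups lay below all CT mice, with log2 fold changes of -0.20 in WT_ST (limma unadjusted p = 0.0474, adjusted p = 0.635) and -0.25 in KO_ST (limma unadjusted p = 0.0278, adjusted p = 0.501). The opposite order held for Ly6c1, at 22.2, 20.5 and 23.5 FPKM in CT, 24.8, 27.2 and 25.5 in WT_ST, and 24.9, 25.4 and 27.5 in KO_ST. All 6 stressed mice were above all 3 CT mice, with log2 fold changes of 0.22 (limma unadjusted p = 0.0109, adjusted p = 0.63) and 0.23 (limma unadjusted p = 0.00719, adjusted p = 0.47). Pecam1 passed the fold of 1.2 in KO_ST against CT in 8 of 17 alternatives, edgeR and DESeq2 among them, and was not called without KO_ST replicate 1 (-0.18, limma unadjusted p = 0.089). Ly6c1 had 0.26 without that mouse (limma unadjusted p = 0.0106), also not called, and passed the fold of 1.2 in 1 of 17 alternatives, the fit without CT replicate 3 (0.27, limma unadjusted p = 0.00479). The CT mice enter both of these comparisons, so the pairs of values are not independent.

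On the quantile-normalized scale, 6 members did not overlap between WT_ST and CT, against 14.0% of all tested genes (17.6% of the members). Cldn5, Pecam1, Vtn and Emcn, which encodes the sialoglycoprotein endomucin, were lower in WT_ST, and Ly6c1 and the P-glycoprotein gene Abcb1a were higher. None of the 8 barrier transport genes was called: their log2 fold changes ran from -0.19 for the thyroid hormone transporter gene Slco1c1 (limma unadjusted p = 0.0697) to 0.16 for Abcb1a (limma unadjusted p = 0.0729), and the lowest p was 0.058 for Tfrc (-0.15). Slco1c1 was called lower without CT replicate 1 (-0.28, limma unadjusted p = 0.0059). The 3 smooth muscle genes lay between -0.03 and 0.09.

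**Figure D2:**
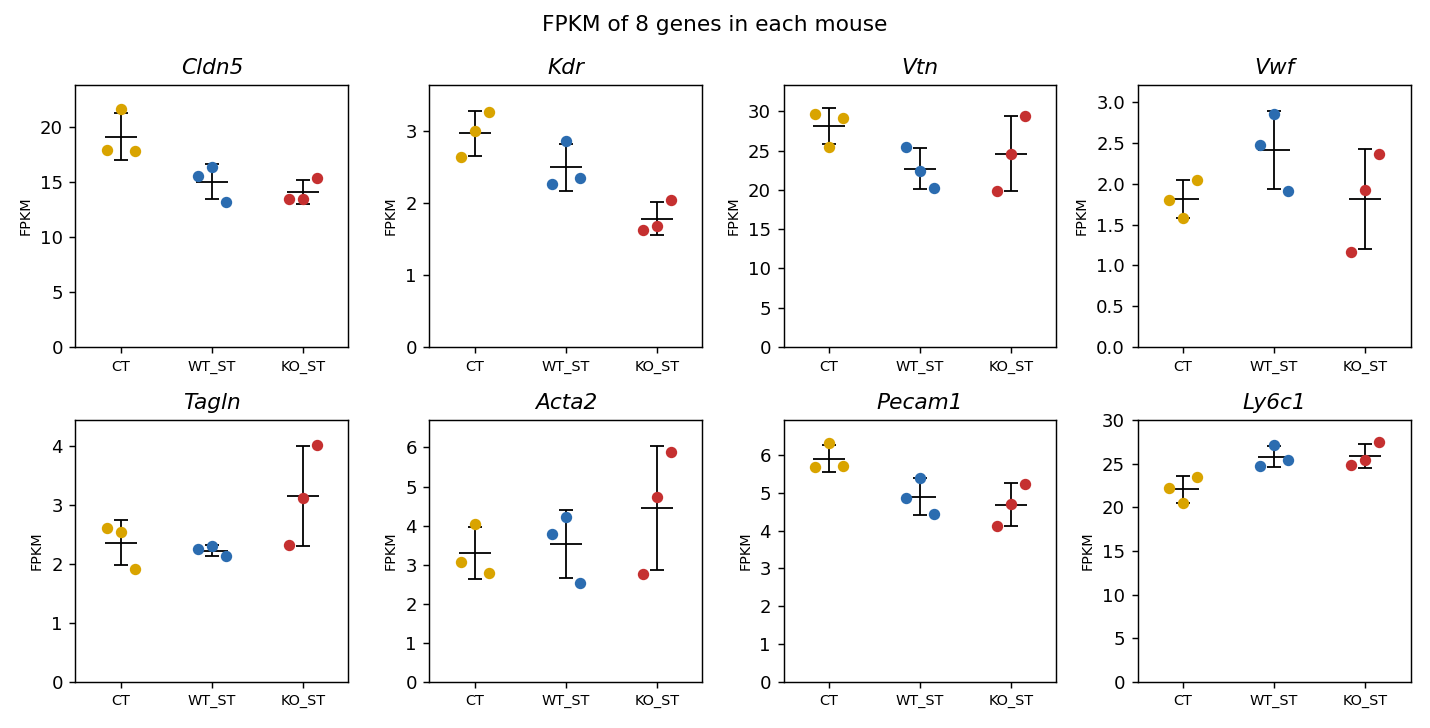
FPKM of 8 genes in each mouse (points), with the mean and SD of the 3 mice of a group (bars), each panel starting at 0. Cldn5 and Pecam1 are lower and Ly6c1 is higher in all stressed mice than in CT mice, Kdr is lowest in the 3 KO_ST mice (1.62 to 2.04 FPKM), and Acta2 and Vwf spread widely within KO_ST.

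The comparison of KO_ST with CT joined restraint and loss of Fkbp5, and its CT mice are those of the comparison above. It called 2 of 34 members (5.88%), against 3.56% of all tested genes, and both, Kdr and Cldn5, fell. By limma and edgeR, 0 of 34 reached an adjusted p under 0.05 (0.0626% and 0.0557% of all tested genes). Before adjustment 6 members had a p under 0.05 by limma (9.46% of all tested genes) and 5 by edgeR (9.34%). DESeq2 gave 2 at an adjusted p under 0.05, again Kdr and Cldn5 (0.786% of all tested genes), and 5 before adjustment (9.39%). The median log2 fold change was -0.04 over the members and 0.0024 over all tested genes.

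Kdr encodes VEGFR2, the main signaling receptor for VEGF on endothelial cells, and lies at chr5:75932827-75979072. Its levels were 2.63, 3 and 3.26 FPKM in CT, 2.26, 2.86 and 2.35 in WT_ST, and 1.62, 1.68 and 2.04 in KO_ST. Each KO_ST mouse lay below each of the other 6 mice, while CT and WT_ST overlapped. Against CT the log2 fold change was -0.47 (SE 0.0905, unadjusted p = 0.00112, limma adjusted p = 0.326, 0.72-fold), and without KO_ST replicate 1 it was -0.44 (limma unadjusted p = 0.00563). Kdr was also called lower against WT_ST, at -0.32 (SE 0.0885, unadjusted p = 0.00813, limma adjusted p = 0.695, 0.801-fold) and at -0.29 without KO_ST replicate 1 (limma unadjusted p = 0.0298). The fit without WT_ST replicate 2 gave -0.25 and lost the call on the fold, and a pseudocount of 5 did so in both comparisons (-0.21 against CT and -0.14 against WT_ST). For WT_ST against CT, Kdr had a log2 fold change of -0.15 (limma unadjusted p = 0.141). Adjusted p for Kdr in KO_ST against CT ran from 0.000133 with DESeq2 to 0.769 over 17 alternatives.

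The other VEGF receptor gene Flt1, Tek and Tie1 were not called in any comparison. Flt1, encoding VEGFR1, had log2 fold changes of -0.13 in WT_ST and -0.23 in KO_ST against CT, with standard errors of 0.103 and 0.136. Tek, the angiopoietin receptor gene, and Tie1, a gene of the same receptor family, had -0.14 and -0.11 in KO_ST against CT. Eng, encoding endoglin, had -0.29 (SE 0.128, limma unadjusted p = 0.0607), with 6.59, 8.47 and 9.58 FPKM in KO_ST against 9.36 to 11.3 in CT, and -0.15 without KO_ST replicate 1. Eng and Flt1 were called lower against CT without KO_ST replicate 3. Eng was called lower in 6 of 17 alternatives, which were that fit, the fits without CT replicate 1, without quantile normalization, with the replicate block and with all 9 mice, and DESeq2.

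Cldn5 in KO_ST against CT had a log2 fold change of -0.39 (SE 0.0923, unadjusted p = 0.00354, limma adjusted p = 0.458, 0.761-fold). It was -0.36 without KO_ST replicate 1 (limma unadjusted p = 0.0156), and the call held in all 17 alternatives, with values from -0.45 to -0.30 and adjusted p from 0.0458 with DESeq2 to 0.787. Between the stressed groups Cldn5 differed by -0.07 (SE 0.0887, limma unadjusted p = 0.45). The remaining junction genes were again not called, with -0.14 for Ocln, -0.11 for Cgnl1 and -0.04 for Tjp1 against CT.

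Of the barrier transport genes, Abcg2, encoding an efflux pump for drugs, was at 6.46, 6.23 and 7 FPKM in CT and 7.07 to 7.42 in KO_ST, without overlap (log2 fold change 0.16, limma unadjusted p = 0.0394, adjusted p = 0.506). Tfrc was at -0.17 (limma unadjusted p = 0.0448, adjusted p = 0.52). Neither reached the fold of 1.2, and without KO_ST replicate 1 Abcg2 had 0.16 (limma unadjusted p = 0.0783) and Tfrc -0.24 (limma unadjusted p = 0.008), again under that fold. Slc2a1 measured 31.1, 32.2 and 36.0 FPKM in CT, 31.9, 33.0 and 34.2 in WT_ST, and 31.5, 41.3 and 39.6 in KO_ST. KO_ST replicates 2 and 3 were the highest mice for this gene, and KO_ST replicate 1 was among the lowest. Its log2 fold change against CT was 0.17 (limma unadjusted p = 0.153), and 0.29 without KO_ST replicate 1 (limma unadjusted p = 0.00691, adjusted p = 0.725). In all, 5 members did not overlap between KO_ST and CT, against 15.8% of all tested genes: Cldn5, Kdr and Pecam1 were lower and Ly6c1 and Abcg2 higher.

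Acta2, encoding the smooth muscle actin of arterioles, had the largest increase of the members in KO_ST against CT on the log2(FPKM+1) scale (with a pseudocount of 0.1 it had 0.43 and Anpep 0.45), but with a spread that left it outside the test (log2 fold change 0.35, SE 0.223, limma unadjusted p = 0.158). Its values were 3.06, 4.05 and 2.78 FPKM in CT, 3.79, 4.22 and 2.54 in WT_ST, and 2.75, 4.72 and 5.89 in KO_ST. KO_ST replicate 1 was below all CT mice and the other KO_ST mice were above all 6 mice of the other groups. Tagln had 0.33 (limma unadjusted p = 0.0787) and Myh11 0.16 (limma unadjusted p = 0.384) in the same comparison.

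Leaving out KO_ST replicate 1 raised the number of members called against CT from 2 to 7 (20.6%), against 3.05% of all tested genes. Acta2 (0.59), Tagln (0.47), Myh11 (0.35), Abcb1a (0.32) and Slc2a1 (0.29) were then called higher, beside Kdr and Cldn5 called lower, all with an adjusted p of 0.725 by limma, and the median over the members was 0.07. Other mice moved this count as well, to 5 without CT replicate 1 (5.11% of all tested genes), to 4 without CT replicate 3 (4.41%), and to 6 without KO_ST replicate 3 (4.57%), where Cldn5, Eng, Flt1, Kdr, Pecam1 and Vtn were called lower. It stayed at 2 without CT replicate 2 (2.85%) or KO_ST replicate 2 (3.27%). KO_ST replicates 1 and 3 thus pulled the members in opposite directions. In KO_ST replicate 1 the summed FPKM of 10 microglial markers was also the lowest of the 9 mice, at 92.6 against 142 to 252 in the others. That of 23 other mural genes was lowest as well, at 39.7 against 41.4 to 56.4, and 8 perivascular macrophage genes summed to 2.51 in this mouse, the lowest of the 9, and to 7.68 in KO_ST replicate 3, the highest. In KO_ST replicate 1, 9 neuronal markers summed to 4360, within the 3770 to 4520 of the other mice. Their part in the result was not tested.

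**Figure D3:**
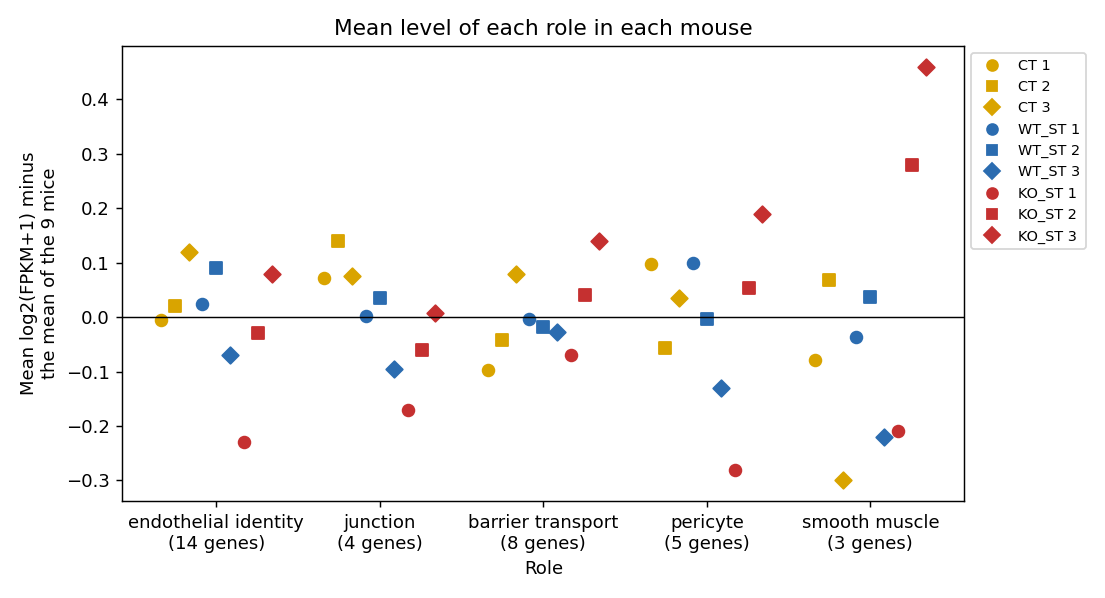
Mean over the genes of a role of quantile-normalized log2(FPKM+1) minus the 9-mouse mean (vertical axis), for each mouse (points, colored by group). KO_ST 1 is lowest for endothelial identity (-0.23), junction (-0.17) and pericyte genes (-0.28), KO_ST 3 is highest for barrier transport (0.14), pericyte (0.19) and smooth muscle genes (0.46), and all 3 CT mice are above the 6 stressed mice for junction genes.

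The comparison of KO_ST with WT_ST asked what loss of Fkbp5 changed among stressed mice, and it shares its mice with the comparisons above. It called 2 of 34 members (5.88%), against 2.0% of all tested genes: Kdr, described above, fell and Tagln rose. By limma, edgeR and DESeq2 0 of 34 members reached an adjusted p under 0.05 (0.153%, 0.16% and 0.529% of all tested genes), and 2 had an unadjusted p under 0.05 by each tool, Kdr and Tagln (5.82%, 5.58% and 4.96%). The median log2 fold change was 0.01 over the members and -0.0015 over all tested genes. Between these groups 3 members did not overlap, against 11.0% of all tested genes, with Kdr and Ocln lower in KO_ST and Tagln higher.

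Tagln encodes transgelin, an actin-binding protein of contractile smooth muscle, and lies at chr9:45929628-45936058. Its levels were 2.62, 2.54 and 1.92 FPKM in CT, 2.26, 2.3 and 2.13 in WT_ST, and 2.33, 3.13 and 4.02 in KO_ST. KO_ST did not overlap WT_ST, but KO_ST replicate 1 at 2.33 lay only just above WT_ST replicate 2 at 2.3 and within the range of CT. Against WT_ST the log2 fold change was 0.35 (SE 0.138, unadjusted p = 0.0366, limma adjusted p = 0.83, 1.28-fold). It was 0.50 without KO_ST replicate 1 (limma unadjusted p = 0.00244, adjusted p = 0.493). The call was lost without any of the other 5 mice, with values of 0.37, 0.36 and 0.33 without WT_ST replicates 1, 2 and 3, 0.35 without KO_ST replicate 2 and 0.21 without KO_ST replicate 3.

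Without KO_ST replicate 1, 5 members were called against WT_ST (14.7%), against 1.92% of all tested genes. Tagln was joined by Acta2 (0.50, limma unadjusted p = 0.0316), Myh11 (0.33, limma unadjusted p = 0.00638) and Slc2a1 (0.29, limma unadjusted p = 0.00162), all higher, and Kdr remained lower. With all mice, Acta2 had 0.26 (limma unadjusted p = 0.307), Myh11 0.13 (limma unadjusted p = 0.427) and Slc2a1 0.17 (limma unadjusted p = 0.122). The count was 0 without WT_ST replicate 2 (1.7% of all tested genes), where 1 member had a limma unadjusted p under 0.05 at any fold (3.79% of all tested genes), and 1 without WT_ST replicate 1 (2.38%), WT_ST replicate 3 (2.57%) or KO_ST replicate 2 (1.96%). It was 3 without KO_ST replicate 3 (3.32%), when Eng, Kdr and Vwf were called lower. The 5 pericyte genes lay between -0.14 (Rgs5) and 0.11 (Vtn), and 0 of 5 were called.

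**Figure D4:**
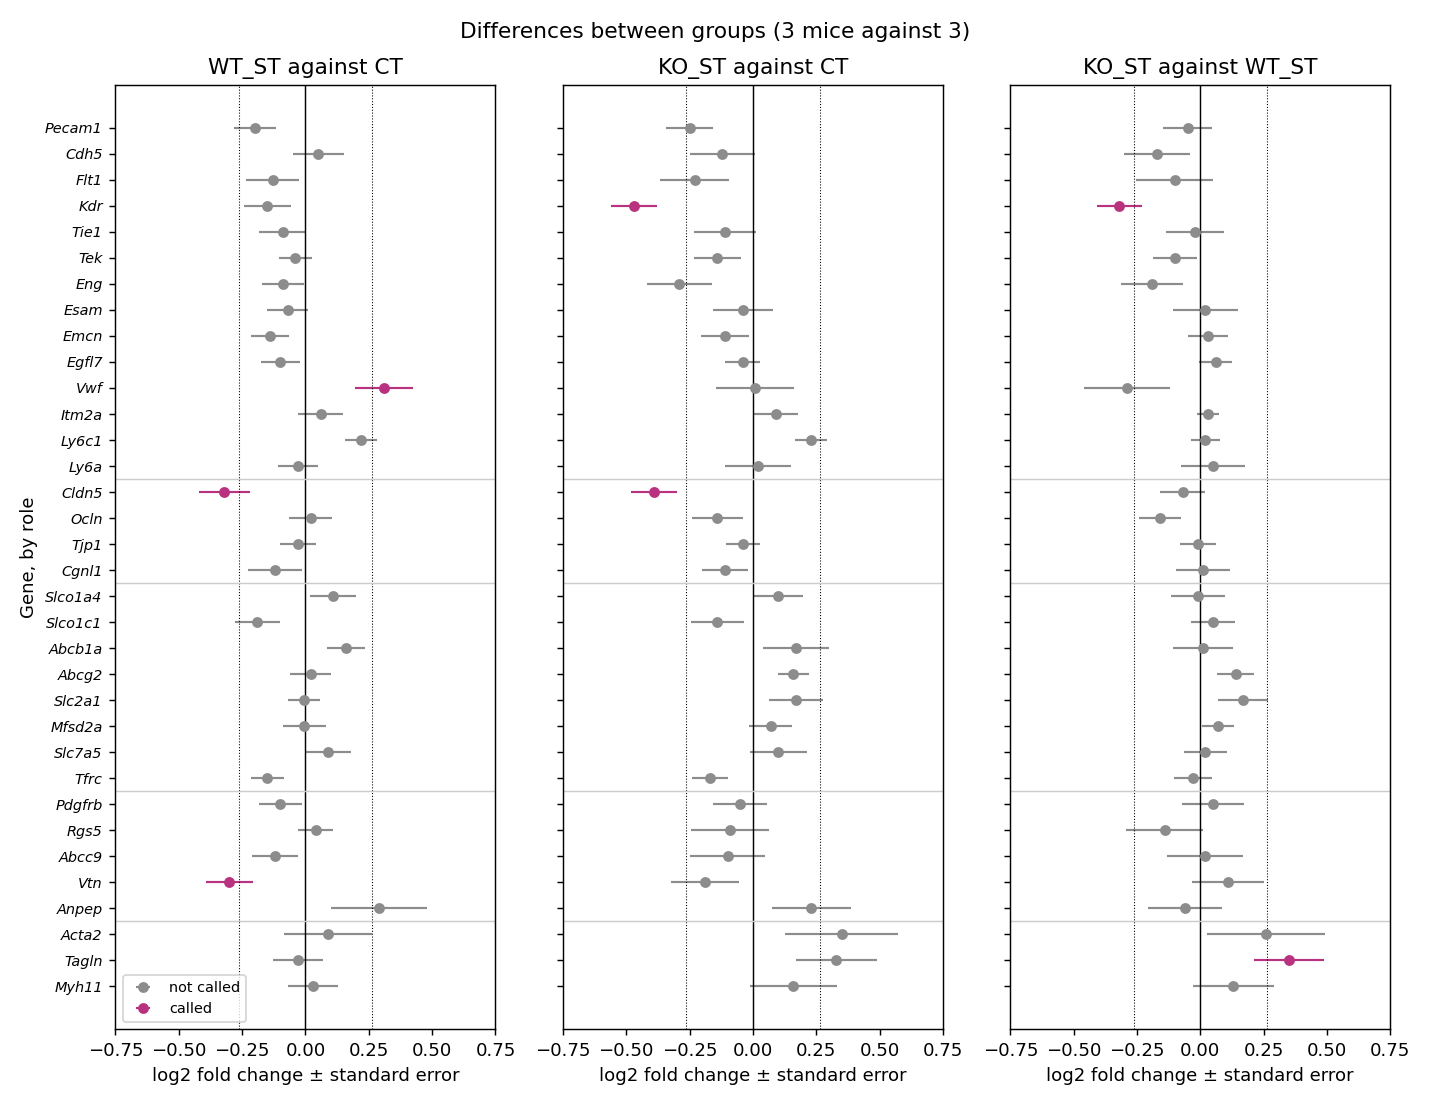
Log2 fold change (horizontal axis) with its standard error for each of the 34 genes, ordered by role, in the 3 comparisons of 3 mice against 3. Dotted lines mark a fold of 1.2 and magenta points the called genes, which are Kdr, Vwf, Cldn5, Vtn and Tagln in at least 1 comparison each.

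Because mice differed in how high the vessel genes were as a whole, 5 members were also expressed relative to other members of the same mouse, a scale chosen after their values had been seen and given without a test. Relative to the 14 endothelial identity genes, Cldn5 stood at 1.31, 1.55 and 1.18 log2 units in CT, 1.09, 1.09 and 0.97 in WT_ST, and 1.16, 0.97 and 1.04 in KO_ST. All 6 stressed mice remained below the CT mice, with KO_ST replicate 1 at 1.16 close to CT replicate 3 at 1.18, and the mean difference from CT was -0.29 in both groups.

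Kdr relative to the other 13 endothelial identity genes was -1.18, -1.02 and -1.06 in CT, -1.31, -1.16 and -1.2 in WT_ST, and -1.38, -1.57 and -1.51 in KO_ST. The KO_ST mice again lay below the 6 others, by -0.40 from CT and -0.26 from WT_ST on average. On this scale KO_ST replicate 1, the lowest mouse for Kdr itself, was the highest of its group. Tagln relative to the 5 pericyte genes was -1.14, -0.98 and -1.39 in CT, -1.23, -1.15 and -1.09 in WT_ST, and -0.83, -0.86 and -0.72 in KO_ST, with all KO_ST mice above all others, by 0.36 from each group. The pericyte genes set against Tagln were themselves lowest in KO_ST replicate 1 (-0.28 from the 9-mouse mean), which by construction raises that mouse on this scale, and Tagln was not set against the other smooth muscle genes.

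Vtn relative to the other 4 pericyte genes separated all 3 groups, at 2.46, 2.4 and 2.5 in CT, 2.17, 2.11 and 2.08 in WT_ST, and 2.24, 2.21 and 2.34 in KO_ST. It was lowest in WT_ST (-0.33 from CT) and intermediate in KO_ST (-0.19 from CT). Vwf relative to the other 13 endothelial identity genes was higher in every WT_ST mouse than in every CT mouse, by 0.36, and KO_ST overlapped both groups.

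**Figure D5:**
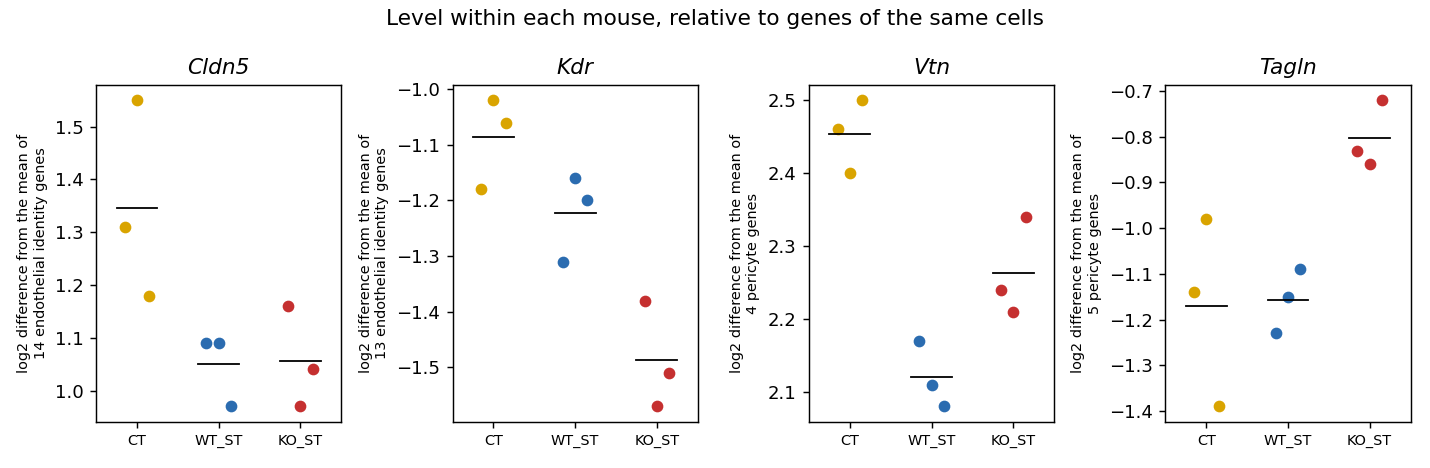
Log2 level of 4 genes in each mouse (points) minus the mean of the named set of endothelial identity or pericyte genes in that mouse, with group means as lines and axes that do not start at 0. Cldn5 is lower in both stressed groups than in CT, Kdr is lower and Tagln higher in KO_ST than in both other groups, and Vtn is lowest in WT_ST.

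Wider lists of vessel genes were read against the shares called over all tested genes (2.47%, 3.56% and 2.0% in the order WT_ST against CT, KO_ST against CT and KO_ST against WT_ST). Of 47 tested other endothelial genes, 2 were called lower in WT_ST against CT (4.26%), Sox18 and Tal1. Tal1, a transcription factor of endothelial and blood cells, was low throughout, at 0.478, 0.54 and 0.838 FPKM in CT and 0.261, 0.324 and 0.238 in WT_ST. Its log2 fold change was -0.32 on the log2(FPKM+1) scale (limma adjusted p = 0.612) and -1.16 with edgeR and DESeq2 on the read counts, and its adjusted p ran from 0.0368 with DESeq2 to 0.915 over 16 alternatives. Tal1 was not called without CT replicate 3 (-0.24) or with a pseudocount of 5 (-0.08). Sox18 had -0.28 and lost this call in 8 of 17 alternatives, among them the fits without CT replicate 2 (-0.26), CT replicate 3 (-0.22), WT_ST replicate 1 (-0.24) and WT_ST replicate 3 (-0.24). In KO_ST against CT, 6 of 47 were called (12.8%). Sox18, Icam2, Ets1, Ecscr and Foxf2 were lower, and Slc3a2, the partner chain of the Slc7a5 transporter, was called higher (0.30, limma adjusted p = 0.499). Sox18, a transcription factor of vessel development, had the largest change on the log2(FPKM+1) scale (-0.46, limma adjusted p = 0.489), with 3.84, 4.6 and 5.03 FPKM in CT, 3.11, 4.08 and 3.17 in WT_ST, and 3.07, 3.43 and 2.29 in KO_ST. Icam2, an adhesion molecule of endothelial cells, had -0.38 on that scale (limma unadjusted p = 0.000405, adjusted p = 0.201), and with edgeR it had -0.75 against -0.59 for Sox18. It measured 1.39, 1.36 and 1.54 FPKM in CT, 1.51, 0.989 and 0.889 in WT_ST, and 0.81, 0.855 and 0.842 in KO_ST, so all KO_ST mice were below all others. None of the 47 was called between the stressed groups, and the list medians were -0.04, -0.08 and -0.01 in the order WT_ST against CT, KO_ST against CT and KO_ST against WT_ST. Slc3a2 lost its call in an unmoderated test and without CT replicate 2 (0.25), CT replicate 3 (0.24) or KO_ST replicate 2 (0.27).

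Of 51 tested genes of angiogenic and mural signaling, Hey2, a Notch target of arteries, was the call in WT_ST against CT (0.29, limma adjusted p = 0.635), and it was lost in 9 of 17 alternatives, among them edgeR (0.44, unadjusted p = 0.0505) and the fits without CT replicate 2 (0.21), WT_ST replicate 1 (0.29) or WT_ST replicate 2 (0.23). In KO_ST against CT the Wnt and norrin receptor gene Fzd4 was called higher (0.33, limma adjusted p = 0.437), and Tgfb1, the ligand read by endoglin and its partners, was called lower with Tgfbr2 (-0.45 for Tgfb1, limma adjusted p = 0.47). Tgfb1 is also made by microglia. Its levels were 1.89, 1.77 and 2.51 FPKM in CT and 0.889, 1.26 and 1.43 in KO_ST, without overlap. Hes1, a target of Notch signaling, was the call in KO_ST against WT_ST (0.37, limma adjusted p = 0.59), at 3.06, 3.18 and 3.06 FPKM in WT_ST and 4.17, 4.87 and 3.87 in KO_ST. None of the VEGF ligand genes Vegfa, Vegfb, Vegfc and Pgf was called in any comparison. Basement membrane genes (15 tested) and other mural genes (20 tested) had 0 calls in each comparison, and their medians ran from -0.08 to 0.04.

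Cells beside the vessel were checked with marker lists. Of 13 astrocyte endfoot genes, 2 were called lower in WT_ST against CT, Slc1a3 and Aqp4, of which Aqp4, the water channel of the endfeet that wrap vessels, changed most (-0.59, limma adjusted p = 0.63). Aqp4 lost its call in an unmoderated test (unadjusted p = 0.0532) and Slc1a3 without CT replicate 3 (-0.25). Aqp4 was at 13.8, 12.9 and 15.6 FPKM in CT, 7.77, 7.31 and 12.1 in WT_ST, and 14.8, 7.24 and 9.66 in KO_ST, so WT_ST lay below CT and KO_ST spanned both. Of 20 genes of perivascular fibroblasts and meninges, 0 were called in WT_ST against CT. In KO_ST against CT 2 collagen genes were called lower, Col6a1 (-0.32) and Col1a2 (-0.34), both at a limma adjusted p of 0.499. The list median was 0.1 in that comparison, with 12 of the 20 genes higher and 8 lower. The Col1a2 call was lost in 5 of 17 alternatives, among them the fits without CT replicate 3 (-0.26) or KO_ST replicate 1 (-0.25). The summed FPKM of the 20 genes was 188 to 218 in CT, 184 to 218 in WT_ST and 188 to 198 in KO_ST. The sums hide differences between mice of a group. The mean log2 deviation of these genes from the mean of all mice was 0.3, -0.24 and -0.27 in CT. It was 0.3, -0.11 and -0.11 in WT_ST and -0.031, 0.052 and 0.11 in KO_ST, in the order of the replicates. The part of these cells in the fits without CT replicate 1 was not tested. Perivascular macrophage genes (5 of 8 tested) had 0 calls, with summed FPKM of 3.39 to 5.77 in CT, 3.02 to 5.77 in WT_ST and 2.51 to 7.68 in KO_ST.

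Microglial markers moved with the stressed groups. In WT_ST against CT 9 of 10 were called lower and in KO_ST against CT 7 of 10, against 2.47% and 3.56% of all tested genes called in either direction, and 0 of 10 reached a limma adjusted p under 0.05 in either comparison. Cx3cr1 had the largest change (-0.48, limma adjusted p = 0.412, and -0.97, limma adjusted p = 0.47), and its call in WT_ST was lost with all 9 mice in one fit (limma unadjusted p = 0.0574). Over the 17 alternatives by limma, edgeR and DESeq2, its adjusted p ran from 0.000112 to 0.821 in WT_ST against CT. In KO_ST against CT it ran from 0.171 to 0.789. In KO_ST against WT_ST P2ry12 was called lower (-0.42), 1 of 10 against 2.0% of all tested genes. The P2ry12 call was lost in 12 of 17 alternatives, among them edgeR and the fits without any of the WT_ST mice (-0.37, -0.42 and -0.47), KO_ST replicate 1 (-0.27) or KO_ST replicate 2 (-0.35). Their summed FPKM was 200 to 252 in CT, 159 to 183 in WT_ST and 92.6 to 199 in KO_ST. Astrocyte markers summed to 735 to 811 in CT, 653 to 686 in WT_ST and 671 to 764 in KO_ST. The part of these cells in the Cldn5, Vtn and Kdr results was not tested.

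Globin and other red blood cell genes summed to 97.6 to 954 FPKM in CT, 191 to 614 in WT_ST and 211 to 324 in KO_ST, and had 0 calls among 6 tested. No perfusion of the brains was stated. Choroid plexus and ependyma markers summed to at most 2.92 FPKM, and 3 of 10 were tested. The ependymal transcription factor gene Foxj1 was called higher in WT_ST (0.47, limma adjusted p = 0.222) and KO_ST (0.40, limma adjusted p = 0.458) against CT. That was 1 of 3 in each, against 2.47% and 3.56% of all tested genes. Foxj1 was low, at 0.224 to 0.974 FPKM with as few as 32 reads in a mouse. The list median was 0.07 in WT_ST against CT. In KO_ST against CT it was -0.1, with 2 of 3 lower. Neuronal markers summed to 3770 to 4520 FPKM with 0 of 9 called, and oligodendrocyte markers to 491 to 914 with 0 of 8 called.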

How the data were processed

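RNA from the mPFC of 9 mice was sequenced, one library per mouse, from a stranded mRNA kit with paired-end reads. By the study's methods and the submitters' processing notes, reads were aligned to mm10 with HISAT2 2.1.0 and Bowtie2 2.3.4.1 and quantified with StringTie 1.3.4d. The strand setting of the quantification is not given in the sources used here, so reads of overlapping antisense genes may be included. The authors deposited read counts per gene without normalization. FPKM values, which divide the reads by transcript length and library size, were deposited by the authors beside them.

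The 34 genes and all marker lists were chosen with earlier results of these data known. FPKM values were taken as log2(FPKM+1) and quantile normalized over the 9 mice, which understates changes of low genes. Genes averaging at least 30 reads per mouse were kept, 14370 of 24532. Each pair of groups was fitted by itself on its 6 mice with limma 3.58.1 in R 4.3.3 (two-sided moderated test, variance trended on mean expression), and p-values were adjusted by Benjamini-Hochberg over all tested genes. This test stood in for a test of each gene by itself, and the script was tested on simulated data. P-values measure the spread between mice, since each library came from its own mouse, and no pair of libraries of a group agreed within sampling noise (chi-square per degree of freedom at least 18.7). Per-mouse values were given by rule for called members and for Cldn5, Pecam1, Slc2a1, Pdgfrb, Rgs5 and Acta2, and after their values were seen for Ly6c1, Eng, Abcg2 and genes of other lists. Test values were given for called members and for the largest change in each direction, and from other lists for the called gene with the largest change in each direction. Other genes were named after their values were seen. Alternatives were pseudocounts of 0.1 and 5, no filter, a mean FPKM of at least 1, no quantile normalization, edgeR 4.0.16 with TMM or RLE size factors and DESeq2 1.42.0 on the read counts, an unmoderated test, all 9 mice in one fit, a replicate block, and each mouse left out.

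Sequences and coordinates came from RefSeq on GRCm38.p6, the build of the files. All 34 members matched its gene table by gene identifier, and promoter windows were matched by symbol.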

Additional observations from a re-analysis of the deposited data

How the results depend on the processing

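The number of members called depended on single mice and on settings, and no member called under any setting reversed in the 17 alternatives. In WT_ST against CT the 3 calls became 1 with a pseudocount of 5 and 0 with an unmoderated test, and 1 to 4 when a mouse was left out. The share of all tested genes called when a mouse was left out ran from 1.93% (CT replicate 2) to 3.77% (CT replicate 3). For KO_ST against CT the 2 calls became 1 with a pseudocount of 5, 4 without quantile normalization, 4 with DESeq2 and 4 with all 9 mice in one fit (519, 738 and 544 of all tested genes, against 512), and 2 to 7 when a mouse was left out. In KO_ST against WT_ST the 2 calls became 0 with a pseudocount of 5, 1 without the filter and 1 with an unmoderated test, and 0 to 5 when a mouse was left out. The median log2 fold change of the members in KO_ST against CT ran from -0.12 to 0.07 when a mouse was left out, the highest value without KO_ST replicate 1. In WT_ST against CT, Cldn5 and Vtn lost their calls with an unmoderated test (unadjusted p = 0.0608 and 0.0526) and Vtn also with a pseudocount of 5 (-0.26), and Tagln lost its call in KO_ST against WT_ST in 9 of 17 alternatives. A pseudocount of 5 shrinks folds by its construction, and the cause of the other shifts was not tested. Over all tested genes, the 355 calls of WT_ST against CT became 544 with a pseudocount of 0.1, 125 with 5, 535 with edgeR under TMM or RLE, 552 with DESeq2, 164 unmoderated and 542 without CT replicate 3. The 512 of KO_ST against CT became 188 with a pseudocount of 5 and 248 unmoderated, and the 287 of KO_ST against WT_ST became 445, 96 and 138 with a pseudocount of 0.1, with 5 and unmoderated, and 477 without KO_ST replicate 3.

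Replicate numbers did not pair the mice: deviations from group means correlated at -0.0102 on average between mice of the same number, and 4 of 9 mice correlated best with their own number. With the replicate block 3, 3 and 1 members were called in the comparisons in the order of the report, beside 399, 562 and 279 of the 14370 tested genes, and in WT_ST against CT Vwf lost its call (unadjusted p = 0.0628) while Anpep gained one (unadjusted p = 0.0321). The limit of detection with 3 mice a group was not determined, and the lowest read count of a member in a mouse was 101.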
